A study of Mus musculus with 8 samples.

Results

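The 10 genes described here, *Pdgfrb*, *Cspg4*, *Rgs5*, *Acta2*, *Des*, *Notch3*, *Kcnj8*, *Abcc9*, *Tagln* and *Myh11*, are transcripts of mural cells, the pericytes and smooth muscle cells that wrap blood vessels. They were chosen by name, and all 10 were found among the 33641 gene symbols of the data. RNA-seq was performed on CD45-CD31+ endothelial cells that were FACS-sorted from microdissected lung tumors, which had been grown from mCherry-labeled LLC cells (Lewis lung carcinoma, a mouse lung tumor line) injected into the left lung. The 4 endFoxf1+/- libraries came from young adult mice on the C57Bl/6 background carrying the tamoxifen-activated *Pdgfb*-iCreER transgene and 1 floxed allele of *Foxf1*, in which Cre removes exon 1 of that allele in cells that use the *Pdgfb* promoter. The 4 control libraries came from mice labelled control, described by the study in one place as single-transgenic, tamoxifen-treated littermates with either the floxed allele or the Cre transgene and in another as wild-type C57Bl/6 mice, so their exact genotype is uncertain. Tumors of both groups were taken at day 21 after injection. The control libraries are called C1, C2, C3 and C4 and the endFoxf1+/- libraries H1, H2, H3 and H4, and the numbers only name them. Nothing in the labels ties a library to 1 animal, so the p-values measure the spread between these libraries.

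Mural cells are recruited to growing vessels by PDGF-B, which endothelial cells release and which binds the receptor PDGFRβ on the mural cell. They share a basement membrane with the endothelium, steady the vessel wall and, where they are rich in smooth muscle actin and myosin, constrict it. In tumors the mural coat is often thin or loosely attached, and NG2, the protein encoded by *Cspg4*, is a common stain for pericytes. The study described less NG2 staining along the tumor vessels of endFoxf1+/- mice, so the question for these data was whether mural transcripts differed between the groups in sorted endothelial cells. FOXF1 is a forkhead transcription factor of lung endothelium, and Cre was directed to endothelial cells, not to mural cells.

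The values were TPM, the number of transcripts of a gene in a fixed total, after division by transcript length. How many reads lie behind a value cannot be read from TPM, so depth is unknown and errors are the spread among libraries of a group. *Foxf1*, the targeted gene, was at 213 to 331 TPM in the control libraries and at 177 (H1), 203 (H2), 14 (H3) and 105 (H4) TPM in the endFoxf1+/- libraries, with no overlap. The libraries were unequal in endothelial RNA. The level of 20 endothelial markers, taken from the mean log2(TPM + 1), ranged from 84.0 to 109% among the control libraries, with their mean as 100%, and was 99.4% in H1, 105% in H2, 5.33% in H3 and 55.2% in H4. *Pecam1*, which encodes CD31, was at 1061 to 1505 TPM in the control libraries and at 1363, 1398, 77.5 and 914 TPM in H1 to H4. H3 therefore stands apart from its label as sorted endothelium, and the differences of the members and of the main gene lists are also given without it.

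Mural transcripts were present at low levels in all libraries, and whether they came from mural cells in the sort or from endothelial cells cannot be told apart in bulk RNA. None of the 10 genes was listed at 0 in any library. Their summed TPM were 69.0 to 102 in the control libraries and 85.5 (H1), 68.8 (H2), 40.2 (H3) and 42.5 (H4) in the endFoxf1+/- libraries, so that *Pecam1* alone was 12.6 to 21.8 times the sum of all 10 in the control libraries. This ratio was 15.9, 20.3 and 21.5 in H1, H2 and H4 and 1.93 in H3. In the control libraries *Tagln* had the highest mean level (31.2 ± 3.17 TPM, SD, n = 4), followed by *Acta2* (16.2 ± 7.45 TPM) and *Rgs5* (15.7 ± 3.68 TPM), whose ranges overlapped. *Pdgfrb* (6.28 ± 1.33 TPM), *Des* (5.93 ± 1.64 TPM) and *Myh11* (4.5 ± 0.761 TPM) came next, each overlapping its neighbour in the order. *Notch3* (1.5 ± 0.243 TPM), *Cspg4* (1.40 ± 0.510 TPM), *Abcc9* (0.729 ± 0.127 TPM) and *Kcnj8* (0.555 ± 0.348 TPM) were lowest, and here too each gene overlapped the next. The gaps without overlap lay between *Tagln* and *Acta2*, between *Rgs5* and *Pdgfrb* and between *Myh11* and *Notch3*.

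**Figure D1:**
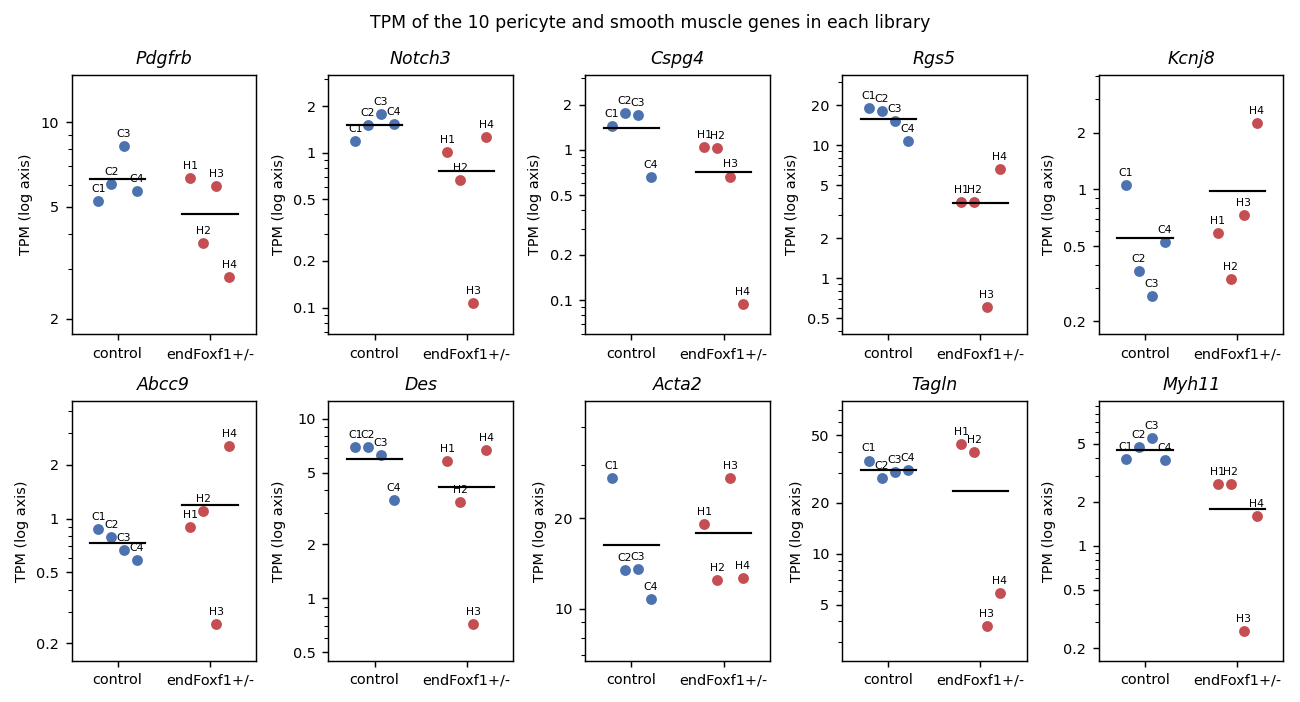
TPM (log axis, its range set for each gene) of the 10 genes in each control (blue, C1 to C4) and endFoxf1+/- (red, H1 to H4) library, with a black line at the mean of the group. For *Rgs5* and *Myh11* all 4 endFoxf1+/- libraries sit below all 4 control libraries, and for the other 8 genes the groups overlap.

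Between endFoxf1+/- and control libraries, *Rgs5* and *Myh11* were the members with the clearest difference, and both were lower in endFoxf1+/- libraries without overlap. *Rgs5* had a mean of 23.5% of its control level and *Myh11* of 39.8%. The other members overlapped between the groups. In the limma fit on log2(TPM + 1) over 14964 genes, 8 of the 10 members passed the filter of at least 1 TPM in at least 4 libraries, and *Kcnj8* and *Abcc9* did not. Of the 8 tested members, 7 were lower and *Acta2* was higher, where 68.0% of all tested genes were lower, and 0 had an adjusted p under 0.05, as was the case for 0% of all tested genes. An unadjusted p under 0.05 was reached by 2 members, both lower, beside 2.77% of all tested genes that were lower at this p. The TPM of the same 2 members did not overlap, beside 2.31% of all tested genes that were lower without overlap. The median log2 difference of the 8 tested members was -0.57, and that of all tested genes was -0.17. Without H3, 8 of 8 members were lower, beside 48.3% of all tested genes, with a median of -0.48 beside 0.013, and 2 again had an unadjusted p under 0.05, beside 2.35% of all tested genes. Set relative to the endothelial markers of the same library, 1 of the 8 was lower and 7 were higher, beside 2.28% of all tested genes lower. This scaling adds the same amount to the log2 difference of every gene. The median of all tested genes moved to 1.07, and the members' gap of 0.40 below it could not change. Fewer mural cells and less RNA per mural cell cannot be told apart in these bulk libraries, and the same holds for a difference in the share of endothelial cells.

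*Rgs5* encodes a regulator of G protein signaling that dampens signals from G protein-coupled receptors and is among the transcripts most typical of pericytes. It lies at chr1:169655501-169695813 on the plus strand of GRCm38. Its level was 18.9, 17.9, 15.1 and 10.7 TPM in C1 to C4 and 3.71, 3.73, 0.602 and 6.66 TPM in H1 to H4. The highest endFoxf1+/- library, H4, was thus below the lowest control library, C4, and the 2 endFoxf1+/- libraries with a full endothelial level, H1 and H2, were alike. The log2 difference was -2.0 ± 0.46 (SE, n = 4 per group; 95% interval -3.03 to -0.98), with an unadjusted p of 0.00154 and an adjusted p of 0.790 from limma with Benjamini-Hochberg adjustment. By an exact two-sided permutation test p was 0.0286, the smallest that 4 libraries against 4 can give. The permutation p was 0.0571 without C1, C2 or C3. The log2 difference was -1.28 with a pseudocount of 5. With the pseudocount of 1 it was -1.56 without H3 (exact permutation p = 0.0286) and -1.79 without H3 and H4, where the smallest possible p is 0.0667. With limma's array weights, which gave H3 a weight of 0.0643, H4 0.178 and the remaining libraries 1.17 to 3.85, *Rgs5* was the single member with an adjusted p under 0.05 (0.0178), beside 0.989% of all tested genes. Over all alternatives the adjusted p from limma ranged from 0.0178 to 0.975. Relative to the endothelial markers the difference was -0.77 (exact permutation p = 0.343), and of the members *Rgs5* alone stayed lower on this scale. There it was -1.30 without H3, -0.43 without H1, -0.40 without H2 and -0.10 with a pseudocount of 5.

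The 250 bases upstream of the RefSeq start of *Rgs5* (GRCm38.p6, chr1:169655251-169655500, plus strand) are shown because it differed most among the members, with the forkhead core TAAACA, searched on both strands, in capitals. Of 32851 mouse promoters in RefSeq (250 bases before to 50 after the start), 13.4% hold this core. A match is a description of letters and not a bound site.
*Rgs5* promoter: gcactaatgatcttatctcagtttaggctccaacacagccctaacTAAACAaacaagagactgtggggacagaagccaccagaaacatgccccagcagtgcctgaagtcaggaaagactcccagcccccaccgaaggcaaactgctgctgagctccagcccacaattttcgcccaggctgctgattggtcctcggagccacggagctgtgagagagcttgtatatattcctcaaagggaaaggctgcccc
Promoters were at hand for 7 of the 10 members, and the core was found in *Rgs5* and *Acta2*.

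The receptors and surface proteins of pericytes were lower on average in endFoxf1+/- libraries, but with overlapping values. *Pdgfrb*, the PDGF-B receptor (chr18:61045150-61085061), was at 5.24, 6.0, 8.22 and 5.67 TPM in C1 to C4 and at 6.33, 3.72, 5.95 and 2.81 TPM in H1 to H4. H1 and H3 were within the control range, and H2 and H4 were below it. The log2 difference was -0.39 ± 0.30 (SE; exact permutation p = 0.257), -0.50 without H3 and -0.21 without H4. H3 held *Pdgfrb* at a level near the control mean although its endothelial level was low. *Cspg4*, which encodes the NG2 proteoglycan (chr9:56865033-56899870), was at 1.45, 1.76, 1.71 and 0.658 TPM in C1 to C4 and at 1.04, 1.04, 0.666 and 0.0947 TPM in H1 to H4. C4 lay below 3 of the endFoxf1+/- libraries, so the groups overlapped through this library. For *Cspg4* the log2 difference was -0.50 ± 0.31 (SE; 95% interval -1.20 to 0.20; exact permutation p = 0.143). It was -0.50 without H3, -0.30 without H4 and -0.20 without both. *Notch3*, the Notch receptor of mural cells (chr17:32120820-32166852), was at 1.18, 1.5, 1.78 and 1.53 TPM in C1 to C4 and at 1.02, 0.662, 0.107 and 1.27 TPM in H1 to H4. Only H4 was above the lowest control library, C1. For *Notch3* the log2 difference was -0.55 ± 0.29 (SE; exact permutation p = 0.0571). It was -0.34 without H3 (exact permutation p = 0.0857), -0.69 without H4 (exact permutation p = 0.0286) and -0.44 without both. At levels near 1 TPM these values depended on the pseudocount. With 0.1 in place of 1 the difference was -1.09 for *Cspg4* and -1.18 for *Notch3*, and with 5 it was -0.16 and -0.18. Relative to endothelial markers *Pdgfrb*, *Cspg4* and *Notch3* were 0.85, 0.74 and 0.69 higher on the log2 scale, with exact permutation p of 0.743, 0.83 and 0.6, and each was lower again once H3 was left out.

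*Rgs5* and *Pdgfrb* did not move in step. In each library the 2 transcripts can be set against each other, without a scaling between libraries, although *Pdgfrb* is also made by fibroblasts, whose markers were at 64.3 to 149% of the mean control level in the control libraries and at 144 to 481% in the endFoxf1+/- libraries, with C1 above H2. The ratio of *Rgs5* to *Pdgfrb* TPM was 1.84 to 3.60 in the control libraries and 0.587 (H1), 1.0 (H2), 0.101 (H3) and 2.37 (H4) in the endFoxf1+/- libraries. H1, H2 and H3 were below every control library and H4, which had the lowest *Pdgfrb*, was inside the control range. The ratio was chosen after the values were seen and was not tested.

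*Kcnj8* and *Abcc9* encode the pore (Kir6.1) and the sulfonylurea receptor (SUR2) of the ATP-sensitive potassium channel of vascular mural cells. They are neighbours on the minus strand of chromosome 6 (142564837-142571614 and 142587862-142702315), 16247 bases apart. *Kcnj8* was at 1.05, 0.370, 0.273 and 0.525 TPM in C1 to C4 and at 0.585, 0.335, 0.734 and 2.26 TPM in H1 to H4. *Abcc9* was at 0.873, 0.786, 0.670 and 0.586 TPM in C1 to C4 and at 0.898, 1.11, 0.256 and 2.53 TPM in H1 to H4. For both genes H4 was the highest of the 8 libraries, while *Cspg4* and *Pdgfrb* were lowest there. The log2 differences, 0.28 for *Kcnj8* (exact permutation p = 0.457) and 0.25 for *Abcc9* (exact permutation p = 0.543), were within the spread. The log2 difference of *Kcnj8* was 0.32 without H3, 0.44 without H2 and 0.013 without H4. Without H3 *Abcc9* was higher in all 3 endFoxf1+/- libraries than in every control library (log2 difference 0.49, exact permutation p = 0.0286). Leaving out H4 instead gave -0.011 for *Abcc9*. The values of both genes thus rested on single libraries.

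Of the contractile genes, *Myh11* was lower in endFoxf1+/- libraries and *Acta2* was not. *Myh11*, the smooth muscle myosin heavy chain (chr16:14194535-14291372), was at 3.92, 4.76, 5.46 and 3.87 TPM in C1 to C4 and at 2.66, 2.66, 0.262 and 1.6 TPM in H1 to H4. All endFoxf1+/- libraries were below all control libraries. The log2 difference was -1.09 ± 0.37 (SE; 95% interval -1.92 to -0.25), with an unadjusted p of 0.0160 and an adjusted p of 0.790 from limma, and an exact permutation p of 0.0286. It was -0.74 without H3 (exact permutation p = 0.0286) and -0.58 without H3 and H4, and without any 1 of the control libraries the exact permutation p was 0.0857. With a pseudocount of 0.1 the log2 difference of *Myh11* was -1.63, and with 5 it was -0.50. Relative to endothelial markers it was 0.15 (exact permutation p = 0.943), and -0.49 when H3 was also left out.

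*Acta2*, smooth muscle α-actin (chr19:34241090-34255590, minus strand), was at 27.2, 13.4, 13.5 and 10.7 TPM in C1 to C4 and at 19.2, 12.5, 27.1 and 12.7 TPM in H1 to H4. C1 and H3 were alike and highest, and the other libraries lay between 10.7 and 19.2 TPM. The log2 difference was 0.15 ± 0.35 (SE; 95% interval -0.65 to 0.94; exact permutation p = 0.771), and it was -0.067 without H3. *Acta2* shares near-identical coding sequence with the other muscle actins, so reads could be split between them. The 250 bases upstream of its RefSeq start (GRCm38.p6, chr19:34255374-34255623, minus strand) are shown because smooth muscle actin is a textbook target of serum response factor (SRF), which binds the CArG box, a core of A and T between a CC and a GG. The exact box, found in 1.63% of promoters, was in 0 of the 7 member promoters. A box with at most 1 G or C in its core of 6 bases, found in 9.98% of promoters, was in *Acta2* only, at 84 and 34 bases before the start. Both boxes, and the forkhead core read on the other strand (TGTTTA), are in capitals.
*Acta2* promoter: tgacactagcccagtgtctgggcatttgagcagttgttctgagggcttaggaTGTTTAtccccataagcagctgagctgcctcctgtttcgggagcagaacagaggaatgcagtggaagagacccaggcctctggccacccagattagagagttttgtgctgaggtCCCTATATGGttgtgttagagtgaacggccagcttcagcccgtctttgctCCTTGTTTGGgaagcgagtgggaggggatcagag
The windows of the other 6 members held neither form of the box, which says nothing about sites elsewhere.

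*Tagln*, the actin-binding protein SM22 (chr9:45929619-45936058, minus strand), was at 35.4, 27.9, 30.1 and 31.2 TPM in C1 to C4 and at 44.3, 39.7, 3.73 and 5.85 TPM in H1 to H4. H1 and H2 were above every control library and H3 and H4 were far below, so the endFoxf1+/- libraries fell on both sides of the control range. The log2 difference was -1.04 ± 0.70 (SE; exact permutation p = 0.429), and without H3 it was -0.46, without H4 -0.64 and without both 0.42 (exact permutation p = 0.0667, the smallest possible). Its exons share 108 bases with *Pcsk7* and 1241 bases with a noncoding gene model on the opposite strand, and no source states that the counting used strand. *Des*, the muscle intermediate filament protein desmin (chr1:75360329-75368579), was at 6.96, 6.98, 6.26 and 3.52 TPM in C1 to C4 and at 5.81, 3.45, 0.720 and 6.71 TPM in H1 to H4. H3 was low, and the other endFoxf1+/- libraries lay near or within the control range. For *Des* the log2 difference was -0.59 ± 0.47 (SE; exact permutation p = 0.229) and -0.13 without H3.

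The balance of contractile transcripts differed between libraries of the endFoxf1+/- group. *Tagln* made up 34.2 to 45.2% of the summed TPM of the members in the control libraries, 51.8% in H1 and 57.6% in H2, and 9.29% in H3 and 13.8% in H4. *Acta2* made up 15.6 to 26.6% in the control libraries, 22.4, 18.1 and 29.9% in H1, H2 and H4, and 67.6% in H3. The ratio of *Tagln* to *Acta2* TPM was 1.30 to 2.91 in the control libraries, 2.31 in H1, 3.18 in H2, 0.137 in H3 and 0.462 in H4. H3 thus held *Acta2* and *Pdgfrb* at or near control levels, with little *Rgs5*, *Tagln* or *Myh11*.

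**Figure D2:**
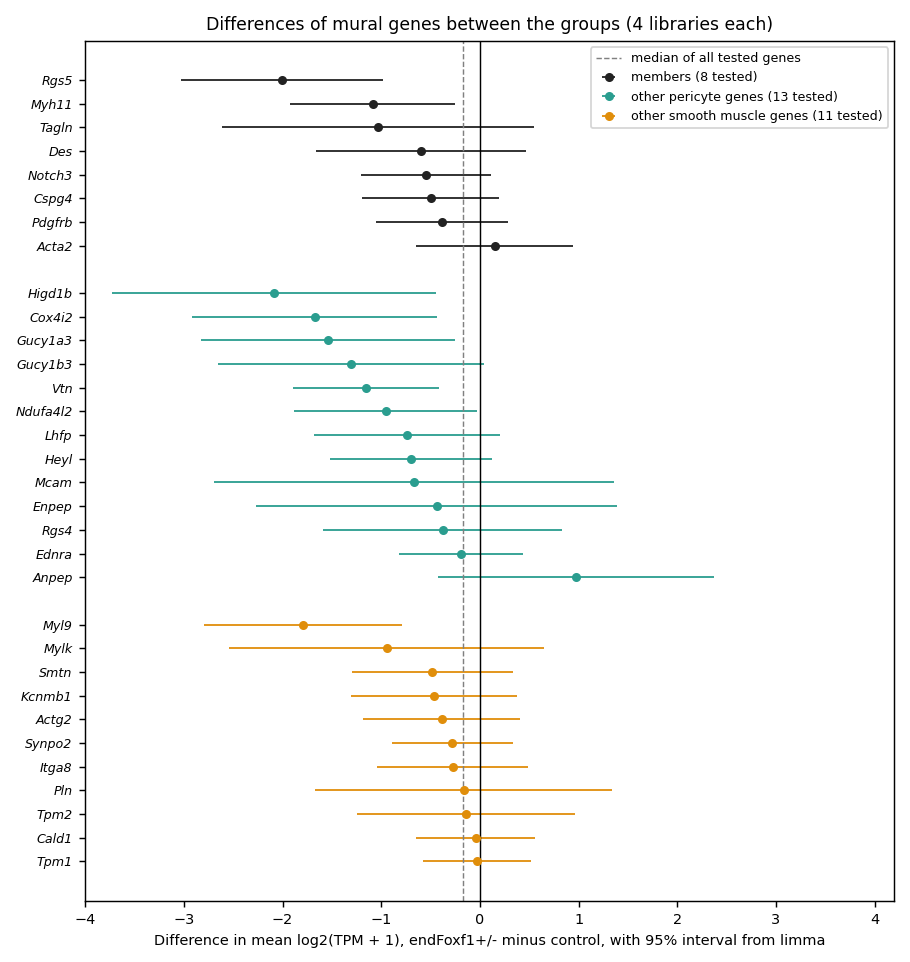
Difference in mean log2(TPM + 1) between endFoxf1+/- and control libraries (4 each), with 95% intervals from limma, for the tested members (black), other pericyte genes (green) and other smooth muscle genes (orange); the dashed line is the median of all tested genes. Most points lie to the left of 0, and the intervals of *Rgs5*, *Myh11*, *Myl9* and 5 other pericyte genes do not cross it, none of them at an adjusted p under 0.05.

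Other genes of pericytes were also mostly lower in endFoxf1+/- libraries. Of 14 listed, 13 were tested and 12 were lower on the log2(TPM + 1) scale (beside 68.0% of all tested genes), 0 with an adjusted p under 0.05 and 5 lower with an unadjusted p under 0.05 (beside 2.77%), with a median log2 difference of -0.74 beside -0.17 for all tested genes. Without H3, 9 were lower and 4 higher, beside 48.3% of all tested genes lower. Of the 9, 4 had an unadjusted p under 0.05, beside 2.35% of all tested genes lower at this p. The median was then -0.48 beside 0.013 for all tested genes. Relative to endothelial markers 4 were lower and 9 higher, beside 2.28% of all tested genes lower. On this scale 0 were lower with an unadjusted p under 0.05, beside 2 of all 14964 tested genes, and the median was 0.50 beside 1.07. *Vtn*, the adhesive glycoprotein vitronectin, was at 1.65 to 4.44 TPM in the control libraries and at 1.19, 0.496, 0.0959 and 0.664 TPM in H1 to H4, without overlap. Its log2 difference was -1.16 ± 0.33 (SE) and -0.95 without H3 and H4. *Vtn* passed the filter through the control libraries, where it was high, since of the endFoxf1+/- libraries only H1 reached 1 TPM. The same held for *Heyl*, named here for this reason, so both entered the counts above through that group. *Gucy1a3*, a subunit of the nitric oxide receptor guanylyl cyclase, was at 15 to 23.7 TPM in the control libraries and at 12.9, 10.6, 0.855 and 6.91 TPM in H1 to H4, also without overlap. Its log2 difference was -1.54 ± 0.57 (SE), -0.91 without H3 and -0.68 without H3 and H4. The most abundant genes of the list were *Mcam*, an adhesion molecule also made by endothelial cells, with 201 to 263 TPM in the control libraries and 431, 269, 14.3 and 273 TPM in H1 to H4, and *Lhfp*, with 54.1 to 70.7 and 62.1, 41.7, 13.1 and 44.5 TPM. Both were lowest in H3, and neither passed the test. *Mcam* was above every control library in H1, H2 and H4, and its log2 difference without H3 was 0.43 (exact permutation p = 0.0286). In mean TPM *Mcam*, *Anpep* and *Enpep* were higher in endFoxf1+/- libraries, the last pair named after their values were seen. *Higd1b*, named here after its values were seen, was at 17.0 to 27.9 TPM in the control libraries and at 18.9 and 12.6 TPM in H1 and H2 against 1.49 and 0.786 TPM in H3 and H4, so its difference of -2.09 became -0.60 without those libraries.

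Of 15 other smooth muscle genes 11 were tested, and 11 had a lower mean log2(TPM + 1) (beside 68.0% of all tested genes), 0 with an adjusted p under 0.05 and 1 with an unadjusted p under 0.05 (beside 2.77%; median log2 difference -0.28 beside -0.17 for all tested genes, and -0.22 with 10 of 11 lower without H3). Among all tested genes 48.3% were lower without H3, with a median of 0.013. Without H3 and H4, 7 of the 11 were lower and 4 higher, beside 29.3% of all tested genes lower. Relative to endothelial markers 1 was lower and 10 were higher, beside 2.28% of all tested genes lower. The median on this scale was 0.96, beside 1.07 for all tested genes. In mean TPM 4 of the 11 were higher (*Tpm1*, *Cald1*, *Tpm2* and *Pln*, the last pair named after their values were seen). The gene with an unadjusted p under 0.05 was *Myl9*, the regulatory light chain of smooth muscle and platelet myosin, at 80.5, 146, 123 and 94.1 TPM in C1 to C4 and at 54.6, 33.5, 11.1 and 41.5 TPM in H1 to H4, without overlap. Its log2 difference was -1.79 ± 0.45 (SE; unadjusted p = 0.00280, adjusted p = 0.790 from limma) and -1.32 without H3 and H4. *Cald1* and *Tpm1*, actin-filament proteins present in many cell types and the most abundant of the list, had log2 differences of -0.042 ± 0.27 and -0.030 ± 0.24 (SE). The groups were separate for *Myl9* and overlapped for *Cald1* and *Tpm1*. The SRF coactivators *Mkl1* (0.33 ± 0.55) and *Mkl2* (-0.38 ± 0.48, SE) had log2 differences within their error. *Mkl1* was at 11.1 to 16.2 TPM in 7 libraries and at 72 TPM in H4.

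The signals by which vessels recruit and hold pericytes were measured in the same libraries. Of 17 such genes 14 were lower (beside 68.0% of all tested genes), 0 with an adjusted p under 0.05 and 1 lower with an unadjusted p under 0.05 (beside 2.77%; median log2 difference -0.99, beside -1.19 for the 20 endothelial markers, 3 of which, *Tek*, *Tie1* and *Eng*, are also among these signals). Without H3 the median was -0.19 with 12 of 17 lower, beside 0.013 and 48.3% of all tested genes lower. With H3 and H4 left out it was 0.12 with 10 of 17 higher, beside 0.14 and 29.3% of all tested genes lower. *Angpt1*, a ligand of the TIE2 receptor that mural cells secrete, was at 3.31 to 5.42 TPM in the control libraries and at 2.95, 1.74, 0.678 and 3.06 TPM in H1 to H4, without overlap. Its log2 difference was -0.85 ± 0.34 (SE; unadjusted p = 0.0320, adjusted p = 0.790 from limma), and it was -0.58 without H3. The endothelial receptors *Eng* (666 to 749 TPM in the control libraries; 813, 820, 58.1 and 333 TPM in H1 to H4) and *Acvrl1* (716 to 947 TPM; 867, 895, 40.0 and 321 TPM) were near or above the control level in H1 and H2 and low in H3 and H4.

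**Figure D3:**
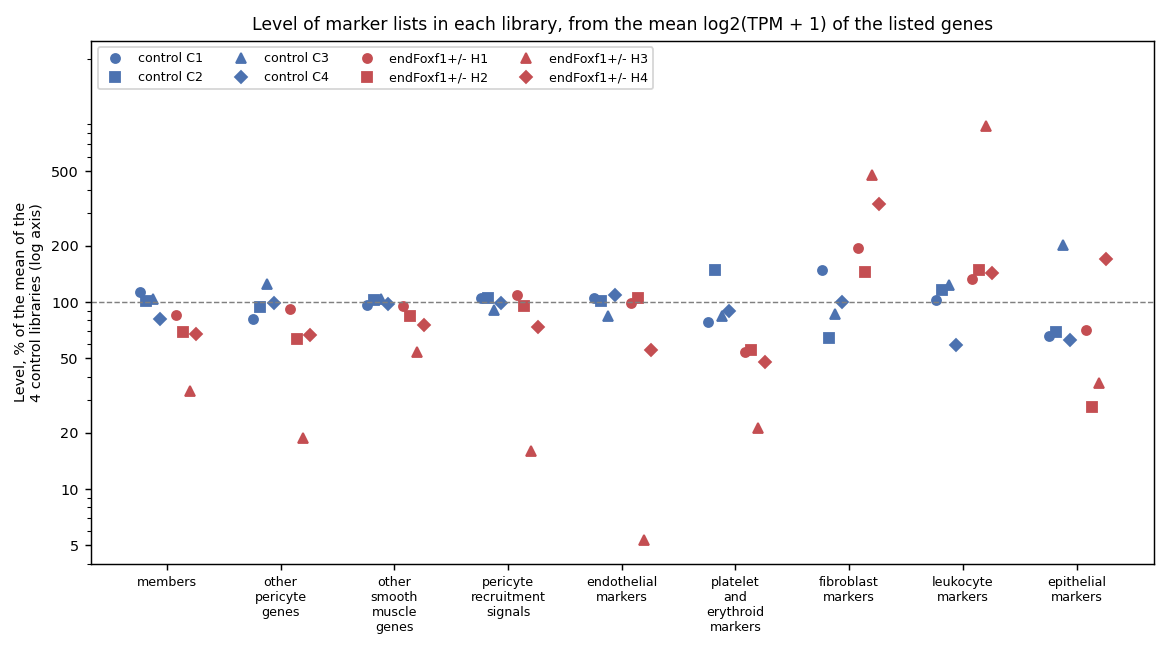
Level of 9 gene lists in each library as a percent of the mean of the 4 control libraries (log axis), from the mean log2(TPM + 1) of the listed genes; blue symbols are control and red symbols endFoxf1+/- libraries, with 1 symbol per library. The members are at 80.9 to 113% in the control and 33.5 to 84.9% in the endFoxf1+/- libraries; platelet and erythroid markers are lower in all 4 endFoxf1+/- libraries, fibroblast and leukocyte markers highest in H3, and endothelial markers at 5.33% in H3.

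Markers of other cell types were read in the same fit, where 0 of them had an adjusted p under 0.05. All 9 platelet and erythroid markers had a lower mean log2(TPM + 1) in endFoxf1+/- libraries, beside 68.0% of all tested genes. An unadjusted p under 0.05 was reached by 7 (beside 2.77% of all tested genes) and an adjusted p under 0.05 by 0. Their summed TPM were 936 to 1941 in the control and 401 to 983 in the endFoxf1+/- libraries. *Gp1bb*, *Gp9*, *Itga2b* and *Treml1*, all of platelets, did not overlap (beside 2.31% of all tested genes). *Alas2*, of red cells and named after its values were seen, had a higher mean TPM in the endFoxf1+/- libraries (2.97 against 2.49 TPM). Relative to endothelial markers 5 of the 9 were lower and 4 higher, beside 2.28% of all tested genes lower. Their median on this scale was -0.22, beside 1.07 for all tested genes. There 0 of the 9 were lower with an unadjusted p under 0.05, beside 2 of all 14964 tested genes. The most abundant were *Ppbp* (354 to 838 TPM in the control and 73.7 to 456 TPM in the endFoxf1+/- libraries) and *Pf4* (256 to 475 and 181 to 290 TPM). Without H3, 8 of 9 were lower, beside 48.3% of all tested genes, and 6 had an unadjusted p under 0.05 (beside 2.35%). The list stood at 54.0, 55.5, 21.3 and 48.1% of the control level in H1 to H4, and none of its genes was at 0. *Myl9* and *Gucy1a3* are also known from platelets. Of 10 fibroblast markers 9 were tested and 7 were higher, 5 with an unadjusted p under 0.05 (beside 2.82% of all tested genes), and their summed TPM were 98.9 to 158 in the control and 186 to 1450 in the endFoxf1+/- libraries. *Col3a1*, *Dcn*, *Dpt* and *Lum*, matrix genes of fibroblasts, were higher without overlap (beside 2.73% of all tested genes), with *Dcn* at 7.64 to 22.7 TPM in the control libraries and 47.2, 36.6, 533 and 82.6 TPM in H1 to H4. Without H3, 8 of 9 fibroblast markers were higher, beside 48.3% of all tested genes lower, and 5 had an unadjusted p under 0.05 (beside 4.83%). All 10 leukocyte markers were higher with and without H3. Among all tested genes 32% were higher over all libraries, and 48.3% were lower without H3. The medians of the markers were 1.31 with and 0.61 without H3 on the log2 scale. Their summed TPM were 1445 to 5057 in the control and 1750 to 7899 in the endFoxf1+/- libraries. *Cd68*, of macrophages, did not overlap (25.9 to 57.5 TPM and 60.9, 106, 522 and 89.8 TPM). Without H3 and H4, 7 of the 10 leukocyte markers were higher and 3 lower, beside 29.3% of all tested genes lower. *Lyz2*, of myeloid cells, was the most abundant (1351 to 4955 and 1582 to 6870 TPM). All 20 endothelial markers had a lower mean log2(TPM + 1), beside 68.0% of all tested genes, with a median difference of -1.19 beside -0.17. The median without H3 was -0.21 with 2 higher, beside 0.013 and 48.3% of all tested genes lower. Leaving out H3 and H4 gave 12 of 20 higher, beside 29.3% of all tested genes lower. *Egfl7* (2855 to 3893 and 122 to 3657 TPM) and *Calcrl* (2437 to 3514 and 114 to 2911 TPM) were the most abundant, and *Cldn5*, of tight junctions, did not overlap (998 to 1409 TPM and 949, 835, 51.0 and 228 TPM). Markers of heart and skeletal muscle, which share *Des* with mural cells, summed to 25.6 to 47.5 TPM in the control and 15.2 to 31.3 TPM in the endFoxf1+/- libraries. *Myl4* and *Tnni3* were the most abundant on average, at 17.7 to 33.2 and 1.76 to 4.34 TPM in the control and 2.41 to 20.8 and 0.838 to 3.99 TPM in the endFoxf1+/- libraries, and *Myh4* was at 0 in all libraries. Epithelial markers, mostly the surfactant transcripts *Sftpc* and *Sftpb*, varied within both groups (summed TPM 6519 to 30811 and 1563 to 23250). The 4 mesothelial markers, led by *Msln* and *Wt1*, summed to 1.73 to 5.20 TPM in the control and 1.48 to 19.5 TPM in the endFoxf1+/- libraries. The part of these cell types in the differences of the members was not tested. In H1 and H2, where the endothelial level was 99.4 and 105% of control, *Rgs5* was at 3.71 and 3.73 TPM against a control mean of 15.7 TPM. Other lists differed there too, with platelet and erythroid markers at 54.0 and 55.5% and fibroblast markers at 196 and 144% of control. What this means for *Rgs5* was not tested.

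Among the members, correlations of levels over the 8 libraries are given for some pairs. No test was run, since the libraries share their genotype groups and H3. On the log2(TPM + 1) scale Pearson's r was 0.90 for *Rgs5* with *Notch3* and 0.90 for *Rgs5* with *Myh11* (0.74 for both without H3). It was 0.71 for *Pdgfrb* with *Cspg4* (0.77 without H3) and -0.78 for *Pdgfrb* with *Abcc9* (-0.85 without H3). For *Myh11* it was 0.34 with *Pdgfrb* and 0.64 with *Cspg4*, but 0.85 with both without H3. The members closest to *Myh11* thus depended on H3. Outside the members, the tested genes closest to their mean log2(TPM + 1) included *Cebpd* (r = 0.98), *Slc46a3* (0.98), *Slc25a38* (0.97) and *Mepce* (0.97), with 0.98, 0.93, 0.91 and 0.89 without H3. *Cebpd*, a C/EBP transcription factor, was at 44.5 to 67.3 TPM in the control libraries and at 42.9, 33.5, 7.22 and 34.4 TPM in H1 to H4, without overlap.

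**Figure D4:**
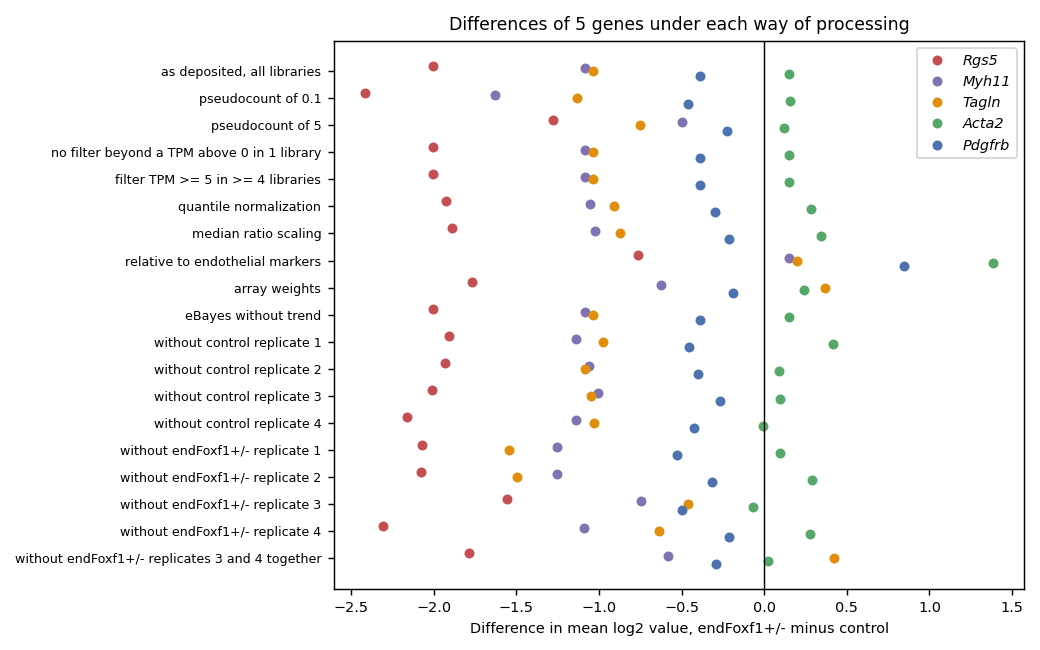
Difference in mean log2 value (endFoxf1+/- minus control) of 5 members under each way of processing, 1 row per setting. *Rgs5* stays below 0 in all of them, from -2.42 to -0.77; *Myh11* is below 0 except relative to endothelial markers; *Tagln* and *Acta2* lie on both sides of 0.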

How the data were processed

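RNA-seq was analysed for CD45-CD31+ cells of 4 control and 4 endFoxf1+/- LLC tumor samples, grouped by the genotype in the labels. The authors deposited TPM per gene symbol, which sum to 1000000 in each library (relative abundances corrected for transcript length). The submitters' processing notes name TopHat, Cufflinks, Subread, DESeq2 and GRCm38 (mm10) without roles or versions. Read numbers are unknown, so no counting error was computed, and the count test of the study was replaced by limma 3.58.1 in R 4.3.3 (lmFit and eBayes with trend) on log2(TPM + 1), for genes with at least 1 TPM in at least 4 libraries, with Benjamini-Hochberg adjustment over all 14964 tested genes and a threshold of 0.05. Members were also compared by exact two-sided permutation tests over all 70 assignments of libraries. Scripts were tested on simulated data. None of the 28 library pairs held identical values.

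The members and lists were chosen with earlier results of these data known. The text names all members, *Foxf1*, *Pecam1*, in each list the 2 most abundant genes with those that passed or did not overlap (values are given for those the results turn on), and the 5 genes most correlated with the members' mean, 1 of which is not reported here. Positions are from GENCODE vM21 (GRCm38), and promoters from RefSeq. The alternatives were other pseudocounts (0.1, 5), filters (none, or 5 TPM), scalings (quantile, median ratio, endothelial markers), array weights, no trend, and libraries left out.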

Additional observations from a re-analysis of the deposited data

Results flagged for a closer look

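In each group of 4 libraries, the log2(TPM + 1) of each member was checked for a library far from the others, with Dixon's 95% critical value for the gap over the range, a rule that chance meets in about 1 in 20 groups. Of 20 groups checked, 1 met it. *Des* was at 3.52 TPM in control library C4 and at 6.26 to 6.98 TPM in the other control libraries, with a gap of 0.835 of the range. Without C4 the log2 difference of *Des* was -0.79 (exact permutation p = 0.2).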

How the results depend on the processing

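Under 18 alternatives the number of genes with an adjusted p under 0.05 was 148 with array weights, 3 without endFoxf1+/- replicates 3 and 4 together, 1 relative to endothelial markers, and 0 to 1 when a single library was left out (1 without control replicate 1 and 1 without endFoxf1+/- replicate 3). With array weights 1 member passed (*Rgs5*), and the lists held 1 smooth muscle gene, 1 fibroblast marker and 5 platelet and erythroid markers past the threshold. Relative to endothelial markers the log2 difference turned to 0.85 for *Pdgfrb*, 0.74 for *Cspg4*, 0.64 for *Des*, 0.69 for *Notch3*, 0.20 for *Tagln* and 0.15 for *Myh11*, and that of *Rgs5* was -0.77. Array weights turned *Tagln* to 0.37, and leaving out H3 and H4 turned *Tagln* to 0.42 and *Kcnj8* to -0.072. Leaving out single libraries gave -0.067 to 0.41 for *Acta2* (-0.067 without H3 and -0.0079 without C4), -0.011 to 0.49 for *Abcc9* (below 0 without H4), -2.31 to -1.56 for *Rgs5* and -1.26 to -0.74 for *Myh11*. The exact permutation p of *Rgs5* was 0.0571 without C1, C2 or C3, and that of *Myh11* was 0.0857 without any 1 control library. On the scale relative to endothelial markers, leaving out H3 turned *Pdgfrb* to -0.24, *Cspg4* to -0.25, *Notch3* to -0.083, *Tagln* to -0.20 and *Myh11* to -0.49, and over all single libraries left out the ranges were -0.24 to 1.36, -0.25 to 1.08, -0.083 to 1.14, -0.20 to 0.73 and -0.49 to 0.42. There *Myh11* was -0.38 with a pseudocount of 0.1 and -0.035 with quantile normalization, and *Abcc9* reached p = 0.0286 with a pseudocount of 0.1 (1.58), median ratio scaling (1.35) or without H1 (1.94), as *Tagln* did without H4 (0.73), by the exact permutation test. The causes were not tested beyond what each alternative leaves out. The unknown depth limits the values of the members near 1 TPM. No paired analysis was possible because the numbers only name the libraries.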
